A study of Mus musculus with 108 samples.

Results

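Microglia from tumour-free brains with the title 5x2 D5 were sequenced as 3 of the 108 libraries of a series on myeloid cells in lung-to-brain metastasis, and were set against the 4 control libraries of tumour-free microglia. The 3 libraries were picked by their column titles in the deposited count table. Their title carries the same 5x2 mark and day 5 as tumour-bearing microglia labelled as irradiated with 5x2 Gy, while their own whole-brain radiotherapy field and their tumour stage field both read none, so whether these brains were irradiated cannot be told from the labels. The start of the day count, and whether the 3 libraries came from 3 mice, were not given in the sources used here, so the p-values measure the spread between libraries, which may be technical. All groups were cells sorted by flow cytometry from the brains of Balb/C athymic nude mice (CAnN.Cg-Foxn1nu/Crl), which lack a normal thymus and most T cells, and total RNA was extracted. Mouse age was not given. Further groups were 3 tumour-free libraries titled 5x2 D3, with the same 2 fields at none, 4 libraries of tumour microglia labelled 5x2 Gy, day 5, and 10 libraries of tumour microglia with no radiotherapy (5 at a small and 5 at a large tumour stage). Tumour-free microglia with no mark in the title are called control below.

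Microglia are the resident macrophages of the brain. They are long-lived, divide slowly, and are recognised by genes such as P2ry12, Tmem119, Sall1 and Cx3cr1. p53 is a transcription factor that is stabilised after DNA breaks and other stress. It binds paired half-sites in DNA and raises genes that stop the cell cycle (Cdkn1a), favour cell death (Bax, Perp, Bbc3), restrain survival signalling (Phlda3) and limit p53 itself (Mdm2, Ccng1). The choroid plexus, which makes cerebrospinal fluid and lies inside the ventricles, is marked by transthyretin (Ttr) and Enpp2.

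The gene with the smallest adjusted p in the day 5 libraries was Cdkn1a, so its promoter is shown. The sequence is the 250 bases before the first of its RefSeq transcript starts (GRCm38.p6, chr17:29090729-29090978, plus strand), and the capitals mark the single match to a pair of p53 half-site cores.
Cdkn1a promoter: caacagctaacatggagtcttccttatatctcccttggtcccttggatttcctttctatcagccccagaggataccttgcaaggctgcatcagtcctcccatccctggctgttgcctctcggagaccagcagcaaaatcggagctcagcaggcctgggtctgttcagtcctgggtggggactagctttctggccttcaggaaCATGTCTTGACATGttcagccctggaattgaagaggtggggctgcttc
The pattern searched was one of the cores CATG, CAAG or CTTG, then 6 bases of any kind, then another of these cores, which reads the same on both strands. The match CATGTCTTGACATG lies 48 to 35 bases before the start. Windows of 300 bases, from 250 before to 50 after the start, were on file for 22 of the 29 genes in a list of p53 targets, and 4 of these genes (Cdkn1a, Bbc3, Aen and Plk2) held a match, or 18.2%, beside 5.46% of all 27025 genes with a window. In Cdkn1a the match was in the window of the first start, and the window of its other start on file held none. The windows of Phlda3, Bax and Ephx1, which were also higher at day 5, held none. Rps27l had the match CTTGTTGAGACTTG in the window of its second start. A match of letters is a description and not a measured binding site.

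The 3 day 5 libraries held 8328223, 11599153 and 10590861 counts, and the 4 controls 5943506, 5145813, 985423 and 18642747. Levels are counts scaled to library size with TMM factors and given as CPM. The microglial label held in each day 5 library. P2ry12 measured 3763, 3603 and 2959 CPM, Tmem119 2348, 3219 and 2706 CPM, and Sall1, a transcription factor of microglial identity, 354, 374 and 336 CPM. Controls 2 and 3 stood apart from controls 1 and 4: P2ry12 was at 1187 and 1241 CPM in the former and at 4330 and 4427 CPM in the latter. Summed olfactory and vomeronasal receptor genes, which microglia should hardly express, reached 1300 and 8742 CPM in controls 2 and 3, against 24.3 to 45.3 CPM in the other controls and the day 5 libraries. These sums were scaled to total counts without TMM factors. Results are therefore also given against controls 1 and 4. Day 5 library 1 differed from its replicates, with a correlation of levels across 4532 genes of at most 0.83 with either, against 0.95 between libraries 2 and 3.

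With all 34 microglia libraries in one fit, 266 of 19754 genes tested (1.35%) differed between day 5 and control at an adjusted p under 0.05. The day 5 level was higher for 157 of them (0.795%) and lower for 109 (0.552%). Against controls 1 and 4 alone 474 of 20068 genes were called (2.36%), 341 higher (1.7%) and 133 lower (0.663%). Only 93 genes were called both ways, 82 of them higher and 11 lower, which is 34.96% of the first list and 19.6% of the second. Without regard to any test, 888 genes (4.5%) lay above all 4 controls in every day 5 library and 337 (1.71%) lay below. The median log2 fold change of all genes was -0.13. Another scaling, DESeq2's size factors, moved it to -0.23 and gave 114 higher and 148 lower genes. The count of 266 rested on single libraries: it was 1663, 1429, 33 and 896 without control 1, 2, 3 or 4, and 146, 60 and 5 without day 5 library 1, 2 or 3. At an unadjusted p under 0.05, 1647 genes were higher (8.34%) and 2991 lower (15.1%), the background for the unadjusted counts of gene lists below. For list counts against control by other tools, the background was 551 higher and 1495 lower genes with DESeq2. With limma-voom with sample quality weights it was 348 higher and 22 lower genes. The count of 266 became 0 when the spread was estimated from the tumour-free libraries or from the compared groups alone.

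Of 29 listed p53 target genes, all tested, 5 rose at day 5 (Cdkn1a, Phlda3, Bax, Ephx1 and Perp) and none fell by edgeR, where 0.795% of all genes were higher. The median log2 fold change of the list was 0.49 beside -0.13 over all genes. At an unadjusted p under 0.05, 10 were higher and 3 lower. DESeq2 called 6 higher and 3 lower, beside 551 and 1495 of all genes. Limma-voom called 5 higher and 0 lower, beside 348 and 22. Over genes of 10 CPM or more edgeR called 4 higher and 1 lower, beside 102 and 164. Without control 1, and likewise without control 2, edgeR called 6 higher and 2 lower, beside 1663 and 1429 genes called in all. Bulk RNA cannot tell fewer cells of a type from less RNA per cell, so each value is a level over the whole sort. The same 5 genes were called against controls 1 and 4 alone. Without day 5 library 1 or 3 the list kept 4 calls, and with the tumour-free libraries alone it had 0 of 29.

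Cdkn1a encodes p21, the inhibitor of cyclin-dependent kinases (ENSMUSG00000023067, chromosome 17, 29090976 to 29100727). It measured 1699.6, 517 and 483 CPM in the day 5 libraries, and 77.7, 92.6, 20.9 and 107 CPM in the controls. Every day 5 library was above every control, and library 1 was far above the other two. Its log2 fold change was 3.57 ± 0.40 (SE, back-calculated from the test's F statistic), with an adjusted p of 1.22e-05 by edgeR's quasi-likelihood test. Every SE given below was obtained in this way. Without day 5 library 1 it was 2.72, with an adjusted p of 0.000324, and with the tumour-free libraries alone it was 3.59 with an adjusted p of 0.43.

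Phlda3, which competes with the kinase Akt at the membrane, lies on chromosome 1 from 135766119 to 135769136 (ENSMUSG00000041801). It measured 13.8, 11.6 and 37.4 CPM at day 5. In the controls it measured 0.562, 1.10, 0 and 0.0494 CPM, so the gene was close to undetected there and the groups did not overlap. The log2 fold change was 5.50 ± 0.77 (SE, adjusted p = 0.000495).

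Bax, an effector of mitochondrial cell death (ENSMUSG00000003873, chromosome 7, 45461697 to 45466898), measured 167, 85.8 and 79.2 CPM at day 5 and 46.2, 66.3, 43.4 and 25.2 CPM in the controls. The groups did not overlap, and library 1 was again the highest. The log2 fold change was 1.29 ± 0.25 (SE, adjusted p = 0.0196), and without library 1 it was 0.86 with an adjusted p of 0.0932. Ephx1, an epoxide hydrolase of xenobiotic metabolism (ENSMUSG00000038776, chromosome 1, 180976210 to 181020904), measured 94.8, 127 and 181 CPM at day 5 and 36.7, 38.5, 38.5 and 24.7 CPM in the controls. Here library 1 was the lowest of the day 5 libraries and still above every control. The log2 fold change was 1.96 ± 0.29 (SE, adjusted p = 0.000777).

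Perp, a membrane protein with a role in cell death and desmosomes (ENSMUSG00000019851, chromosome 10, 18845020 to 18857073), measured 9.37, 35.1 and 78.5 CPM at day 5 and 3.23, 3.31, 0 and 0.889 CPM in the controls. The 3 libraries spanned a wide range, lowest in library 1 and highest in library 3. The log2 fold change was 4.31 ± 0.85 (SE, adjusted p = 0.0203), and without library 3 it was 3.45 with an adjusted p of 0.249. Rps27l, a ribosomal protein paralog that p53 induces, was not on the list and also rose, with a log2 fold change of 1.20 ± 0.28 (SE, adjusted p = 0.0353). It was at 152, 85.1 and 103 CPM at day 5 and at 34.2 to 70.7 CPM in the controls, and the call was lost without day 5 library 1 (adjusted p = 0.134) or 3 (adjusted p = 0.248).

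**Figure D1:**
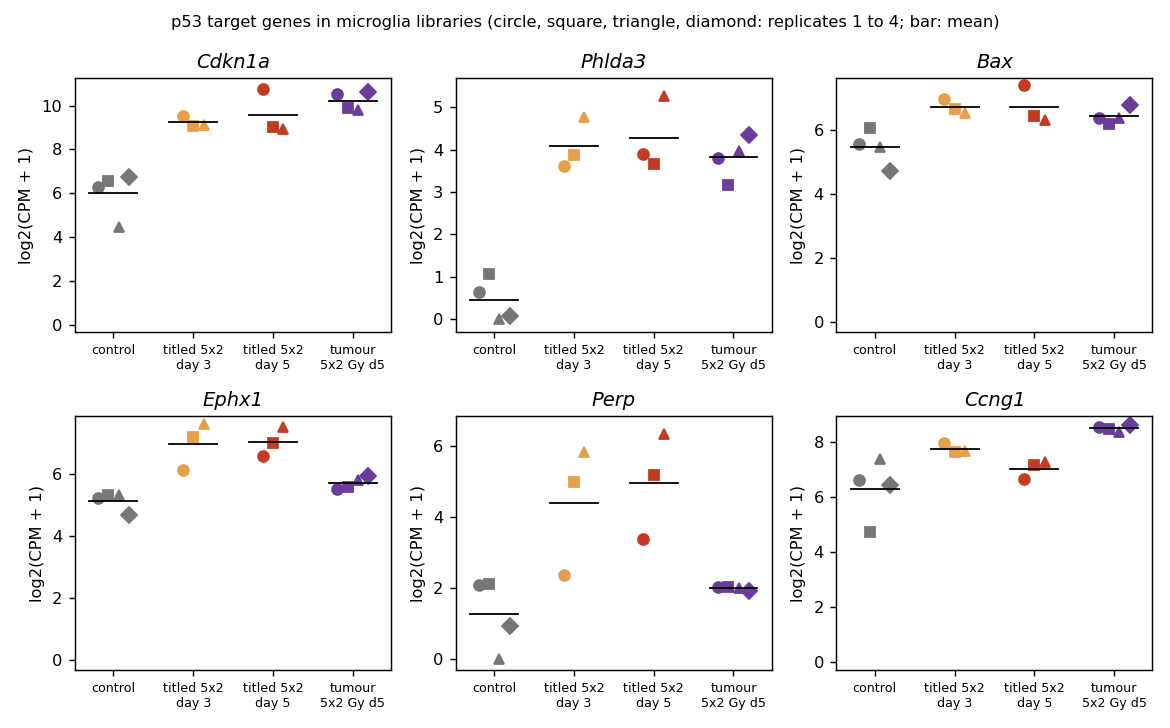
Levels, as log2(CPM + 1), of 6 p53 target genes in control, titled 5x2 day 3, titled 5x2 day 5 and tumour 5x2 Gy day 5 microglia, with one symbol per library (circle, square, triangle and diamond for replicates 1 to 4) and a bar at the mean. Cdkn1a, Phlda3, Bax, Ephx1 and Perp at day 5 lie above all controls, whereas Ccng1 overlaps them.

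The regulators of p53 itself did not pass the test. Mdm2, the ubiquitin ligase that removes p53, measured 105, 143 and 142 CPM at day 5 and 70.1 to 111 CPM in the controls (log2 fold change 0.49 ± 0.22, SE, adjusted p = 0.18). Ccng1, a cyclin that helps to switch p53 off, measured 99.4, 141 and 153 CPM against 25.1 to 166 CPM (0.51 ± 0.32, SE, adjusted p = 0.34). In both genes library 1 was the lowest of the 3. In Mdm2 only library 1 fell within the control range, while in Ccng1 all 3 libraries did. Of the cell death genes, Bbc3 (PUMA) was at 27.0, 24.6 and 14.8 CPM against 4.01 to 26.4 CPM, and Pmaip1 (NOXA) at 17.7, 4.76 and 12.2 CPM against 7.87 to 25.0 CPM. Neither was called. Aen, a nuclease of apoptosis, lay above every control, at 29.7, 35.9 and 38.6 CPM against 0 to 25.9 CPM, but missed the threshold (adjusted p = 0.086). Btg2, an antiproliferative gene, was at 2049, 1209 and 1439.6 CPM at day 5, where library 2 was below the control range of 1334 to 2209 CPM.

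The titled 5x2 day 3 libraries share the control group with day 5, so the values are given side by side only. Against control, 378 genes were called at day 3 (1.91%). Cdkn1a measured 740, 534 and 554 CPM, Phlda3 11.3, 13.8 and 26.2 CPM, and Bax 124, 100 and 91.8 CPM at day 3. All of these were above every control. Ccng1 was at 247, 196 and 205 CPM, above the day 5 range of 99.4 to 153 CPM. In the p53 list 7 genes rose at day 3, beside 163 of all 19754 genes, and 5 at day 5, beside 157.

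Compared directly, no gene differed between day 5 and day 3 (0% of 19754) by edgeR. At an unadjusted p under 0.05 there were 419 genes, DESeq2 called 18 and limma-voom 15. None of the 29 p53 genes was called by edgeR (0 by DESeq2 and 0 by limma-voom), and the median log2 difference of the list was -0.23. Unadjusted, 3 were lower, beside 1.3% of all genes.

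Tumour microglia labelled 5x2 Gy, day 5, share no library with this comparison. Against unirradiated tumour microglia, 7 genes were called there (0.0354%), all higher: Phlda3, Inka2, Ccng1, Npy, Map3k20, Matn1 and Cdkn1a. Of these, 2 were also called in tumour-free day 5 microglia, Cdkn1a and Phlda3, which is 0.752% of the tumour-free list and 28.6% of the tumour list. Cdkn1a measured 1452, 936, 876 and 1552 CPM in the irradiated tumour libraries and 274 to 621 CPM, with a median of 454 CPM, in the 10 unirradiated ones. The unirradiated tumour libraries were thus already above the tumour-free controls in this gene. Phlda3 measured 7.93 to 19.4 CPM, overlapping the tumour-free day 5 range of 11.6 to 37.4 CPM. In the p53 list 3 of 29 genes were called higher by edgeR in this tumour comparison. Unadjusted, 12 were higher and 0 lower, beside 182 and 357 of all 19754 genes. The list's median log2 fold change was 0.50, beside -0.05 over all genes. Bax measured 71.2 to 110 CPM in the irradiated tumour libraries, above the 37.7 to 60.9 CPM of the unirradiated ones. Ephx1 measured 44.7 to 59.7 CPM, above 22.1 to 36.9 CPM, and neither gene was called by edgeR (adjusted p = 0.57 and 0.41). Perp measured 2.74 to 3.05 CPM in the irradiated tumour libraries, below all 3 day 5 libraries.

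**Figure D2:**
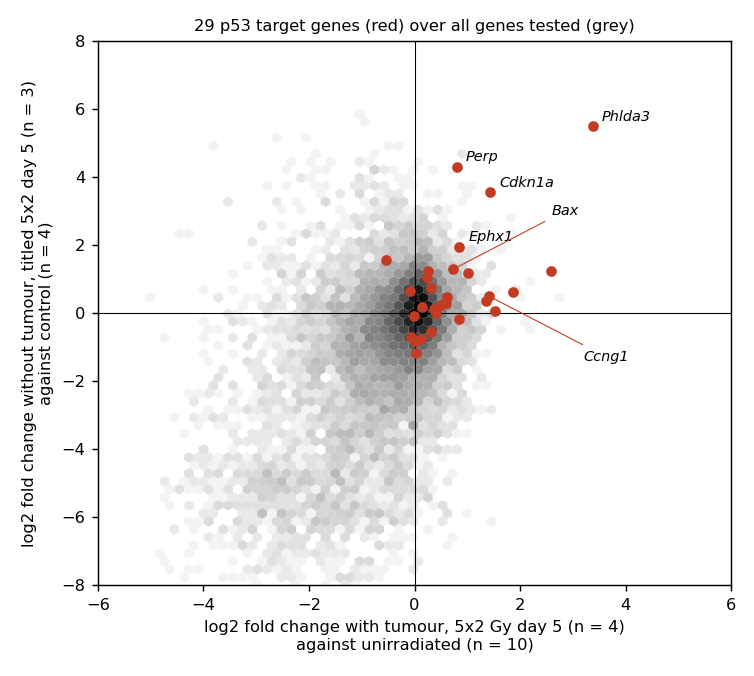
Log2 fold change of tumour-free microglia titled 5x2 day 5 against control (vertical) over that of tumour microglia 5x2 Gy day 5 against unirradiated tumour microglia (horizontal), for the 29 p53 target genes (red) and all genes tested (grey, darker where more genes lie); 19248 genes lie inside the axes and 506 outside. Phlda3 and Cdkn1a lie high on both axes, while Perp and Ephx1 are high mainly on the vertical one.

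The difference between these differences was tested as an interaction. No gene passed (0%) by edgeR, with 2304 genes at an unadjusted p under 0.05, 309 called by DESeq2 and 79 by limma-voom. The count was 121 against controls 1 and 4 alone and 210 without control 2. For Cdkn1a the tumour-free difference exceeded the tumour difference by 2.13 ± 0.49 on the log2 scale (SE, adjusted p = 0.25), and for Perp by 3.51 ± 1.04 (SE, adjusted p = 0.26). None of the 29 p53 genes was called by edgeR, with 2 higher by DESeq2 and 0 by limma-voom. Unadjusted, 5 were higher and 4 lower, beside 4.75% and 6.92% of all genes.

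RNA of the choroid plexus varied widely across the tumour-free sorts. The 10 listed choroid plexus and ependymal genes summed to 4831, 10595 and 18345 CPM in the day 5 libraries. In controls 1 to 4 the sum was 7.87, 4086, 2201 and 7.76 CPM, and at day 3 it was 430, 10199.7 and 17061 CPM. All day 5 libraries were above all controls, and the gap to controls 1 and 4 was far larger than that to controls 2 and 3. The sum was 2.81 to 47.4 CPM in the tumour 5x2 Gy day 5 libraries. Ttr measured 3173, 3377 and 4220 CPM at day 5, against 3.51, 2875, 1632 and 3.06 CPM in the controls. Enpp2, the enzyme autotaxin, measured 1435, 6263 and 11824.5 CPM, against 1.40, 1065, 461 and 2.67 CPM. The ependymal genes Ccdc153 and Tmem212 were at 0 in all 3 day 5 libraries.

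Of the 9 choroid plexus and ependymal genes tested, 0 were called against all 4 controls by edgeR, with 6 higher and 1 lower at an unadjusted p under 0.05, 1 higher by DESeq2 and 4 higher by limma-voom. Their median log2 fold change was 3.86. Without control 2 it was 5.42, with 5 genes called higher. Against controls 1 and 4 alone 5 were higher, Folr1, Kl, Prlr, Enpp2 and Clic6, and the fitted median was 10.12. That value is no bound, since Kl was at 0 in both of these controls and the fitted fold change then depends on the prior count.

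**Figure D3:**
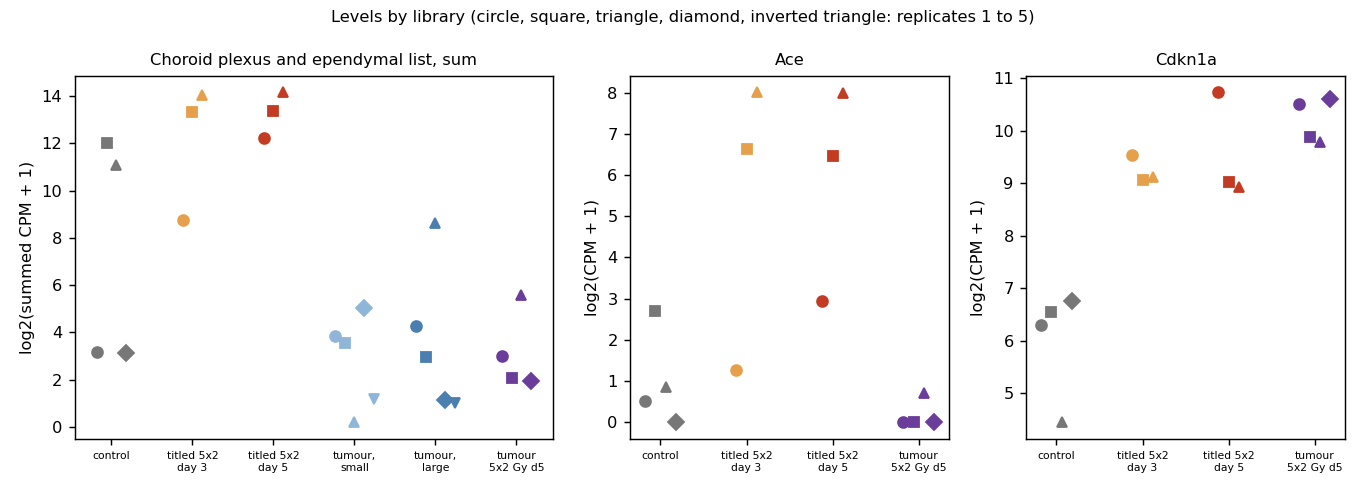
Summed level of the choroid plexus and ependymal list, as log2(summed CPM + 1), and levels of Ace and Cdkn1a, as log2(CPM + 1), with one symbol per library (replicates 1 to 5 as circle, square, triangle, diamond and inverted triangle). In the day 5 group library 3 is highest in the list and in Ace, while library 1 is highest in Cdkn1a.

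The largest increases were in genes whose levels followed the order of this list among the libraries. By the naming rule, genes called in both fits without overlap, 57 were higher and 5 lower. Among the 15 with the largest log2 fold change, 14 were lowest in day 5 library 1 and highest in library 3, and all 15 had that order at day 3. Of all 57 higher genes, 35 had the order at day 5 and 50 at day 3, and 13 were highest in day 5 library 1. The share of all genes tested with this order was not computed. Ace, the angiotensin-converting enzyme, measured 6.65, 87.2 and 253 CPM at day 5 and 0.421, 5.52, 0.803 and 0 CPM in the controls (log2 fold change 6.07 ± 1.40, SE, adjusted p = 0.0335). It spanned a wide range among the day 5 libraries, the lowest of which was just above control 2.

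The same order held for several transport and matrix genes. Car12, a carbonic anhydrase, was at 16.7, 168 and 405 CPM, with 13.8 CPM in control 2 and 0 in the other controls (5.70 ± 1.37, SE, adjusted p = 0.0386). Atp1b1, a subunit of the sodium pump, was at 31.1, 108 and 284 CPM against 1.19 to 11.9 CPM (4.97 ± 1.04, SE). Control 2 was the highest control in both, as it was in the summed choroid list. Bmp6, a ligand of the TGF-beta superfamily, rose from at most 1.52 CPM in the controls to 1.61, 24.6 and 56.2 CPM, and Fmod, a collagen-binding proteoglycan, from at most 0.983 CPM to 2.52, 14.4 and 52.6 CPM. The remaining genes of the 15 were Dcaf12l1, Vat1l, Phlda3, Slc16a8 (a monocarboxylate transporter), Islr, Pcp4l1, Car14 (a carbonic anhydrase), Tinagl1, Spint2 (a serine protease inhibitor) and Ociad2, with log2 fold changes of 4.63 to 5.97. Phlda3 was the exception to the library order, being lowest in library 2. Of the other p53 genes called, Ephx1 and Perp had the choroid order at day 5 and at day 3. Cdkn1a and Bax were highest in library 1 at both days.

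When a term for the choroid list level was added to the fit, 8 of these 15 genes lost the call, among them Ace (log2 fold change 2.86, adjusted p = 0.0996). Cdkn1a (4.05), Phlda3 (4.87), Bax (1.23), Ephx1 (1.66) and Perp (3.97) kept theirs. With the same term 3691 genes were called in all, 849 higher and 2842 lower, so the term changed much of the comparison. The list level was higher in every day 5 library than in every control. The fit therefore could not fully separate the term from the group, and a kept or lost call does not decide between them. Of the 157 higher genes, library 3 was the highest day 5 library in 117 (74.5%), compared with 31.8% of all genes tested.

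Some of the other genes that rose had another order. Ly6e, a membrane protein with a lipid anchor that interferon can induce, was picked for display after its values were seen. It measured 1231, 1024 and 1061 CPM at day 5 and 278, 263, 218 and 337 CPM in the controls, with 1027, 1013 and 1352 CPM at day 3. The day 5 libraries lay close together and far from the controls (log2 fold change 2.01 ± 0.34, SE, adjusted p = 0.00663). Cd63, a tetraspanin of late endosomes and the one of 25 disease-associated microglia genes that rose, measured 201, 129 and 164 CPM against 44.2 to 103 CPM (1.08 ± 0.27, SE, adjusted p = 0.0455). Cd59a, which blocks the last step of complement and was the one of 14 complement genes that rose, measured 16.6, 24.1 and 63.4 CPM against 0.803 to 9.80 CPM, and did follow the choroid order, lowest in library 1 and highest in library 3.

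The 5 lower genes of the naming rule were Zfp850, Gdap10, Ap4e1, Zfat and Dennd4b. Zfat, a zinc-finger regulator, measured 3.02, 5.77 and 4.40 CPM at day 5 and 13.5, 8.70, 8.83 and 15.3 CPM in the controls (log2 fold change -1.41 ± 0.33, SE, adjusted p = 0.0335). Dennd4b, an activator of Rab GTPases, measured 48.2, 66.4 and 60.1 CPM against 123, 81.3, 187 and 113 CPM (-1.10 ± 0.26, SE). Ap4e1, a subunit of the adaptor complex AP-4, measured 9.27, 16.8 and 15.1 CPM against 21.2, 18.9, 149 and 40.6 CPM (-2.01 ± 0.45, SE). In Ap4e1 control 3 stood far above the other controls, while in Zfat it was among the low ones. Gdap10 fell by 2.31 and Zfp850 by 2.36 on the log2 scale, both with control 3 as the highest control.

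The homeostatic programme of microglia showed no call by edgeR among 22 genes (1 higher at an unadjusted p under 0.05, 0 by DESeq2 and 0 by limma-voom). Their median log2 fold change was 0.12 with all controls and -0.21 against controls 1 and 4. P2ry12 gave 0.30 ± 0.38 (SE, adjusted p = 0.69) and Cx3cr1 -0.28 ± 0.29 (SE, adjusted p = 0.61). Against controls 1 and 4, P2ry12 gave -0.32, opposite in sign. Apoe, a lipid carrier of activated microglia, measured 2121, 1735 and 2211 CPM against 699, 2637, 1934 and 811 CPM. It overlapped the controls through controls 2 and 3. Spp1 (osteopontin) was at 134, 104 and 44.1 CPM against 61.8, 36.2, 4.01 and 51.3 CPM (1.24 ± 0.59, SE, adjusted p = 0.20).

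Inflammatory and antigen presentation genes gave few calls. Ptgs2, the inducible cyclooxygenase, was the one of 24 cytokine and NF-kB genes that fell: it measured 1.81, 2.03 and 1.10 CPM at day 5 and 5.06, 5.38, 24.9 and 13.7 CPM in the controls (log2 fold change -2.75 ± 0.70, SE, adjusted p = 0.0460). Against controls 1 and 4 alone its adjusted p was 0.065. Of 30 interferon-stimulated genes 0 were called by edgeR, with 1 higher and 8 lower at an unadjusted p under 0.05, 5 lower by DESeq2 and 0 by limma-voom. Ifit3 was at 26.6, 52.1 and 24.4 CPM against 36.7, 28.4, 112 and 21.4 CPM. None of 10 MHC class II genes was called by edgeR (1 higher and 3 lower unadjusted, 1 higher and 3 lower by DESeq2, 0 by limma-voom). H2-Aa stood at 2.42, 1.56 and 1.35 CPM against 1.43 to 5.62 CPM, which is a low level in both groups. None of 18 MHC class I and immunoproteasome genes was called by edgeR (1 each way unadjusted, 1 lower by DESeq2, 0 by limma-voom), and H2-K1 ranged from 13.9 to 42.9 CPM against 18.6 to 258 CPM.

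Growth factor and matrix signalling gave 2 further calls. They were 1 of 14 growth factor receptors and ligands and 1 of 20 TGF-beta pathway genes, beside 0.795% of all genes higher. Both followed the choroid order, lowest in library 1 and highest in library 3. Gas6, a ligand of the TAM receptors that bind dying cells, measured 145, 332 and 475 CPM against 138, 107, 70.7 and 166 CPM (log2 fold change 1.39 ± 0.35, SE, adjusted p = 0.0447), with day 5 library 1 inside the control range and an adjusted p of 0.15 against controls 1 and 4. Ltbp3, which holds latent TGF-beta, measured 6.45, 52.6 and 104 CPM against 4.99 to 12.8 CPM (2.56 ± 0.65, SE, adjusted p = 0.0455). Its library 1 also lay inside the control range, and libraries 2 and 3 carried the difference. Against controls 1 and 4 its adjusted p was 0.088.

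Among metabolic genes, 0 of 22 hypoxia and glycolysis genes were called by edgeR. At an unadjusted p under 0.05, 9 were higher and 1 lower, beside 8.34% and 15.1% of all genes, with 2 higher and 1 lower by DESeq2 and 1 higher by limma-voom. The list median was 0.74, beside -0.13 over all genes. Aldoa, a glycolytic aldolase, was at 446, 492.7 and 845 CPM against 262 to 338 CPM, above every control (adjusted p = 0.079). None of 25 lysosome genes was called by edgeR (5 higher unadjusted, 0 by DESeq2 and 0 by limma-voom). The log2 fold change was positive in 24 of 25, beside 43.7% of all genes, and the list median was 0.25 with all controls and 0.08 against controls 1 and 4. Antioxidant (21 genes) and cholesterol synthesis (21 genes) lists had 0 calls by edgeR and 4 higher genes each unadjusted. DESeq2 called 2 antioxidant genes higher and limma-voom 1 cholesterol gene.

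**Figure D4:**
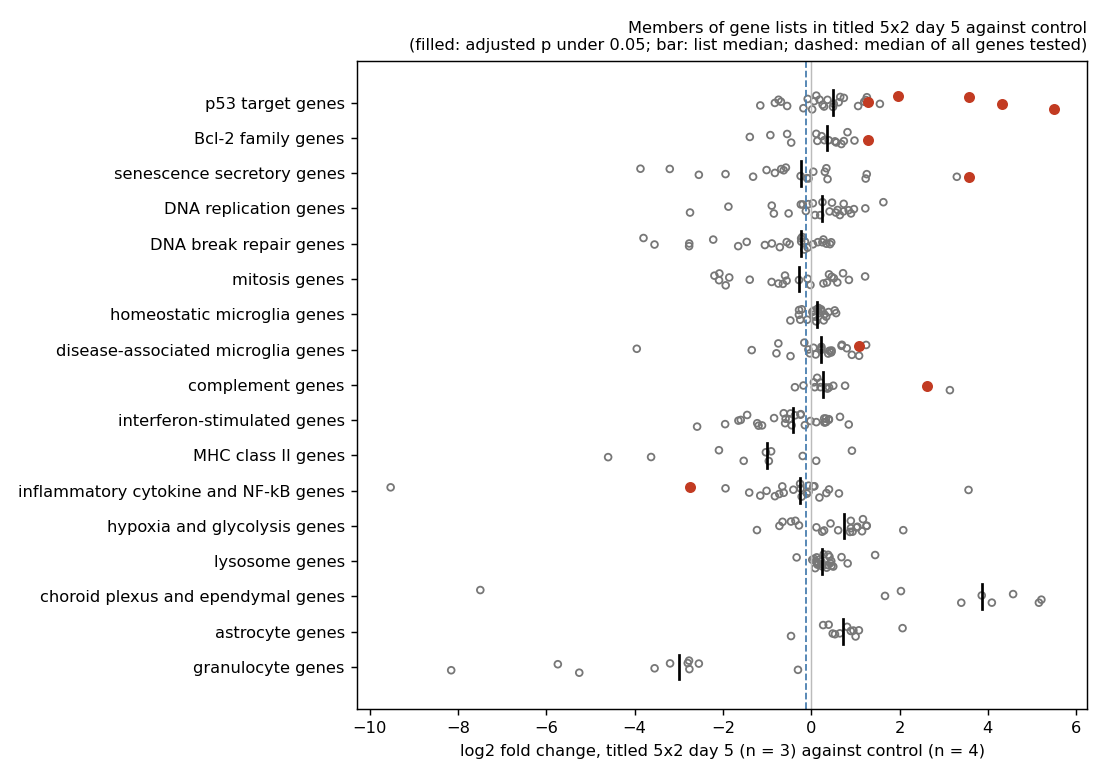
Log2 fold change of each tested member of 17 gene lists in titled 5x2 day 5 (3 libraries) against control (4 libraries), filled red where the adjusted p was under 0.05, with a bar at the list median and a dashed line at the median of all genes. The p53 list holds 5 filled points, all to the right, and most lists hold 0 or 1.

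Lists for other cell types than the choroid plexus held no calls by edgeR. These were astrocyte (12 genes, median log2 fold change 0.73), oligodendrocyte (10, 0.62), neuron (12, -1.46), endothelial and mural (12, -1.86), erythroid (4, 1.88), monocyte (14, -1.46), border macrophage (11, -0.95), granulocyte (10, -3.00), dendritic cell (10, -0.86) and lymphocyte genes (11, -0.37). Against controls 1 and 4 alone the medians were 1.17 for astrocyte, 1.90 for oligodendrocyte, 0.14 for neuron, -0.04 for endothelial and mural, 3.75 for erythroid, 0.12 for monocyte, -0.50 for border macrophage, 0.10 for granulocyte, -0.55 for dendritic cell and -0.05 for lymphocyte genes, so the negative medians of the neuron, monocyte and granulocyte lists turned in sign. At an unadjusted p under 0.05, beside 8.34% of all genes higher and 15.1% lower, 1 astrocyte and 2 oligodendrocyte genes were higher, and 3 neuron, 2 endothelial, 3 monocyte, 1 border macrophage, 4 granulocyte, 1 dendritic cell and 2 lymphocyte genes were lower. DESeq2 called 1 neuron, 2 endothelial, 3 monocyte, 1 border macrophage and 1 granulocyte gene lower, and limma-voom 1 astrocyte gene higher. Summed neuron genes were at 20.3, 29.4 and 37.3 CPM at day 5 and at 308 CPM in control 3 alone, with 25.3 to 74.3 CPM in the other controls. Summed astrocyte genes were at 2235, 3669 and 5103 CPM, against 1442 to 2893 CPM in the controls, again highest in library 3. Their part in the other results was not tested.

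The 23 mitosis genes summed to 35.7, 121 and 36.4 CPM at day 5, to 19.0, 25.8 and 26.6 CPM at day 3, and to 48.0, 96.1, 233 and 65.0 CPM in the controls. Day 5 libraries were all above day 3 libraries, with library 2 well above the other two and within the control range. Mki67, the proliferation marker, measured 2.32, 6.94 and 1.86 CPM at day 5 and 0.424, 0.0653 and 0.212 CPM at day 3. Top2a, the topoisomerase of dividing cells, measured 3.33, 12.2 and 3.64 CPM at day 5 and 0.424, 0.849 and 0.424 CPM at day 3. Neither gene was called between the days. Of the 23 genes, 0 were called between the days by edgeR, with 10 higher at an unadjusted p under 0.05 (0.825% of all genes), 1 higher by DESeq2 and 0 by limma-voom, and a median log2 difference of 1.75 beside 0 over all genes. Against control, the list had 0 calls at day 5 by edgeR (2 lower unadjusted, 2 lower by DESeq2, 0 by limma-voom), and Mki67 gave -1.39 ± 0.82 (SE, adjusted p = 0.30) with all controls and 0.24 against controls 1 and 4.

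**Figure D5:**
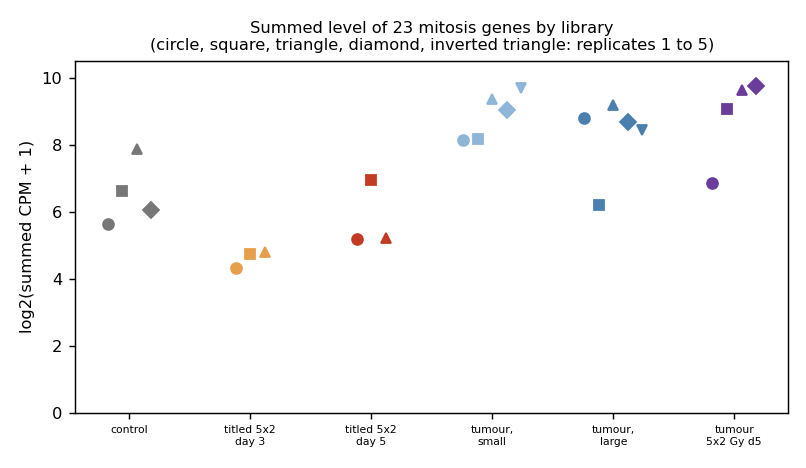
Summed level of 23 mitosis genes, as log2(summed CPM + 1), with one symbol per library (replicates 1 to 5 as circle, square, triangle, diamond and inverted triangle). The day 3 libraries are the lowest, day 5 libraries 1 and 3 lie just above them, and most tumour libraries are the highest.

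The remaining damage and growth lists gave few calls by edgeR. DNA replication genes (25) had 0 calls by edgeR, 2 higher and 1 lower unadjusted, 2 higher and 1 lower by DESeq2 and 0 by limma-voom. DNA break repair genes (25) had 0 calls by edgeR, 11 lower unadjusted, 11 lower by DESeq2 and 0 by limma-voom, and their sum was 277 to 350 CPM at day 5 against 776 CPM in control 3 and 350 to 477 CPM in the other controls. In the senescence (21 genes) and Bcl-2 family (16 genes) lists the single call was Cdkn1a and Bax, respectively. Ribosomal protein (33), histone (15) and immediate early genes (22) had 0 calls by edgeR, with 2, 0 and 3 lower unadjusted, 2, 0 and 3 lower by DESeq2 and 0 by limma-voom.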

How the data were processed

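RNA-seq of sorted cells was analysed from the authors' deposited table of raw counts (49585 genes, 108 libraries). Per the submitters' processing notes, FastQC, TopHat2 2.0.14, HTSeq, DESeq2 1.18.1 and GRCm38 were used; their roles, the strand setting and the annotation release were not given in the sources used here, so reads of overlapping genes cannot be told apart. Gene positions are from GENCODE M21 (49326 IDs matched) and promoters from RefSeq.

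The 34 microglia libraries were fitted together with edgeR 4.0.16 (R 4.3.3): filterByExpr (minimum count 10, minimum total 15), TMM factors, quasi-likelihood test with 1 mean per group and 25 residual degrees of freedom, and Benjamini-Hochberg adjustment over all genes, threshold 0.05. Each SE is the absolute log2 fold change divided by the square root of the test's F statistic, and was not fitted separately. It is only a rough guide where a group is near 0 counts. For the interaction in Fmod it was 86.6 beside a log2 value of 4.08. The procedure was tested on simulated data. The simulated libraries shared a common mean per gene, apart from genes changed in the day 5 group. They held no outlying controls and no choroid RNA differences, so the simulation could not show how the calls depend on these. None of the 561 pairs of these libraries agreed within sampling noise (chi-square per gene at least 13.7). Genes named had to pass with all 4 controls and with controls 1 and 4, without overlap, and at 10 CPM or more in the higher group, the 15 largest each way; members of 33 gene lists and a few microglial genes were added, of which 1 is not reported here. Members and lists were chosen with earlier results of these data known. Alternatives were DESeq2 1.42.0, limma-voom 3.58.1 with sample quality weights, other scaling, filters, a replicate block, fewer groups and leaving out libraries. A term for the choroid level and leaving out 5 doubtful libraries were chosen after seeing the data. Total counts ran from 985423 to 18642747 in the tumour-free libraries, control 3 being the shallowest.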

Additional observations from a re-analysis of the deposited data

Results flagged for a closer look

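In groups of 4 libraries, 38 values were checked for a single library far from the other 3, and 6 had one. Chance gives about 1 in 20 for independent, normally distributed values, which these CPM need not be. Ttr and Enpp2 are members of the choroid list, so their flags and that of its sum are not independent. Control 3 had 8742 CPM (without TMM factors) of summed olfactory and vomeronasal receptor genes, with 43.7 to 1300 CPM in the other controls. Ephx1 was at 24.7 CPM in control 4, below the 36.7 to 38.5 CPM of the others. In tumour microglia 5x2 Gy day 5, library 3 stood apart in the summed choroid plexus and ependymal genes (47.4 CPM, others 2.81 to 7.09), in Ttr (22.3 CPM, others 0 to 0.304) and in Enpp2 (23.5 CPM, others 0.988 to 4.14). Perp was at 2.74 CPM in library 4 of that group, a little below the 3.01 to 3.05 CPM of the others.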

How the results depend on the processing

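The count of genes called between day 5 and control, 266, was 451 without a filter on low counts, 2046 with DESeq2 (551 higher and 1495 lower), 26 with the replicate block, 0 with the compared groups alone, 0 with the tumour-free libraries alone, 474 with controls 1 and 4, 5 to 1663 leaving out one library, 3691 with the choroid term and 530 without the 5 doubtful libraries. The split was 348 higher and 22 lower with limma-voom and 102 and 164 over genes of 10 CPM or more. The day 3 count, 378 (163 higher, 215 lower), was 674 with the other scaling (138 higher, 536 lower), 743 without a filter, 2379 with DESeq2, 10 with the replicate block, 0 with the compared groups or the tumour-free libraries alone, 81 with controls 1 and 4, 4 to 2326 leaving out one library, 4015 with the choroid term and 89 without the doubtful libraries. Between days, 0 became 18 with DESeq2, 15 with limma-voom, 0 to 1 leaving out one library and 1 without the doubtful ones. In tumour microglia, 7 became 11 without a filter, 36 with DESeq2, 56 with limma-voom, 3 with the replicate block, 2 to 10 leaving out one library and 13 with the choroid term. The interaction's 0 became 8, 309 and 79 without a filter, with DESeq2 and with limma-voom, 121 with controls 1 and 4, 0 to 210 leaving out one library, 60 with the choroid term and 13 without the doubtful libraries. The cause was not tested.

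The replicate numbers were not used as pairs in the main fit. Between control and day 5, deviations of same-numbered libraries correlated at -0.41, -0.30 and -0.13, against -0.23 to 0.40 for differently numbered ones. Between day 3 and day 5 they correlated at 0.28, 0.08 and 0.44, against -0.54 to 0.25 for differently numbered ones. Whether the numbers mark a shared origin of the day 3 and day 5 libraries was not tested. Among single genes, 10 values turned in sign: P2ry12 (-0.13) and Mki67 (0.22) with limma-voom; P2ry12 (-0.32) and Mki67 (0.24) with controls 1 and 4; Cx3cr1, from -0.51 to 0.079 leaving out one library (positive without control 4); Ttr (-1.11), Cx3cr1 (0.10) and Apoe (-0.14) with the choroid term; and P2ry12 (-0.34) and Mki67 (0.24) without the doubtful libraries. Of the other values, 151 lost the threshold, 7 gained it and the rest kept direction and side.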
